A study of Glycine max with 24 samples.

Results

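Roots of a soybean (Glycine max) line labelled as overexpressing GmNFYA were compared with roots of the wild-type cultivar Jack after salt treatment. Both groups had received 150 mM NaCl for 6 h, and each was represented by 3 RNA-seq libraries, 6 of the 24 libraries in the series. The 6 libraries were taken by their titles from the table of root read counts, and the rows of unassigned reads were dropped. The other libraries used here were 3 GmNFYA and 3 Jack root libraries without treatment, and leaf libraries of both genotypes with and without the same NaCl treatment. All untreated libraries are labelled 0 h, so salt-treated and untreated libraries differ in time as well as NaCl. Because both salt-treated root groups share the dose and the time, the genotype is the labelled difference between them. The labels give neither the promoter of the transgene, the number of transgenic events behind the line, nor the age of the plants, and whether the replicates are different plants is not stated, so the p-values reflect the scatter of these libraries, part of which may be technical.

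NF-Y is a transcription factor complex made of the subunits NF-YA, NF-YB and NF-YC, of which NF-YA recognises the CCAAT box of promoters. Plants carry a family of NF-YA genes, and members of it have been tied to responses to drought, salt and nutrient shortage. In salt-treated roots, sodium enters first through the outer cell layers, water uptake falls, and abscisic acid and ion transport responses are set in motion. The 2 deposited tables list gene IDs without names or descriptions, and none of the IDs matched the gene table of the reference assembly, so genes are given by ID, no gene is given a function, and the root label could not be set against marker genes.

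Reads assigned to genes numbered 20159072 to 20825981 in the GmNFYA libraries and 17517536 to 23459341 in the Jack libraries. The GmNFYA libraries resembled each other more closely than the Jack libraries did: Pearson correlations of log2 CPM (reads of an ID relative to the TMM-scaled size of its library) across IDs were 0.986 to 0.988 within GmNFYA, 0.976 to 0.984 within Jack and 0.966 to 0.969 between the groups. The median SD of log2 CPM over the 3 libraries of a group was 0.143 in GmNFYA and 0.187 in Jack. The first principal component, with 48.4% of the variance, held the GmNFYA libraries at -48.6 to -45.6 and the Jack libraries at 40 to 53.3. Jack replicate 1 stood apart on the second component (20.7%), with a score of 63.1 against -22 and -34.7 for Jack replicates 2 and 3. Multiply aligned reads were 5.39 to 5.61% of all reads in GmNFYA and 6.11 to 6.63% in Jack, and reads not aligned 5.46 to 5.93% and 4.55 to 4.88%. These shares do not overlap between the groups, and their part in the results was not tested.

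GmNFYA roots differed from Jack roots under salt in 6168 of the 36390 IDs tested (16.9%), with 2567 higher in GmNFYA (7.05%) and 3601 lower (9.9%). Called IDs are those with a Benjamini-Hochberg adjusted p under 0.05 in edgeR's quasi-likelihood test, and log2 fold changes are GmNFYA over Jack. Most of these differences were small: the median called ID was 1.51-fold higher or 1.46-fold lower. At least 2-fold differences were called for 557 higher IDs (1.53%) and 745 lower IDs (2.05%), at least 4-fold ones for 118 (0.324%) and 176 (0.484%), and at least 8-fold ones for 48 (0.132%) and 62 (0.17%). The CPM of the 2 groups did not overlap for 12428 IDs (34.2%), and this held for 5969 of the called IDs. The count of calls depended on which library was left out, at 3868, 3886 or 3918 without GmNFYA replicate 1, 2 or 3, 3932 without Jack replicate 2, and 6214 and 5236 without Jack replicate 1 or 3. The split between higher and lower differed with the kind of scaling. It was 2771 higher and 3928 lower with DESeq2, and 2588 higher and 3548 lower with RLE size factors. With library sizes alone, in place of TMM factors that correct for the composition of the libraries, 5239 IDs were called higher and 1928 lower, and the median log2 fold change of all tested IDs was 0.11 instead of -0.02.

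**Figure D1:**
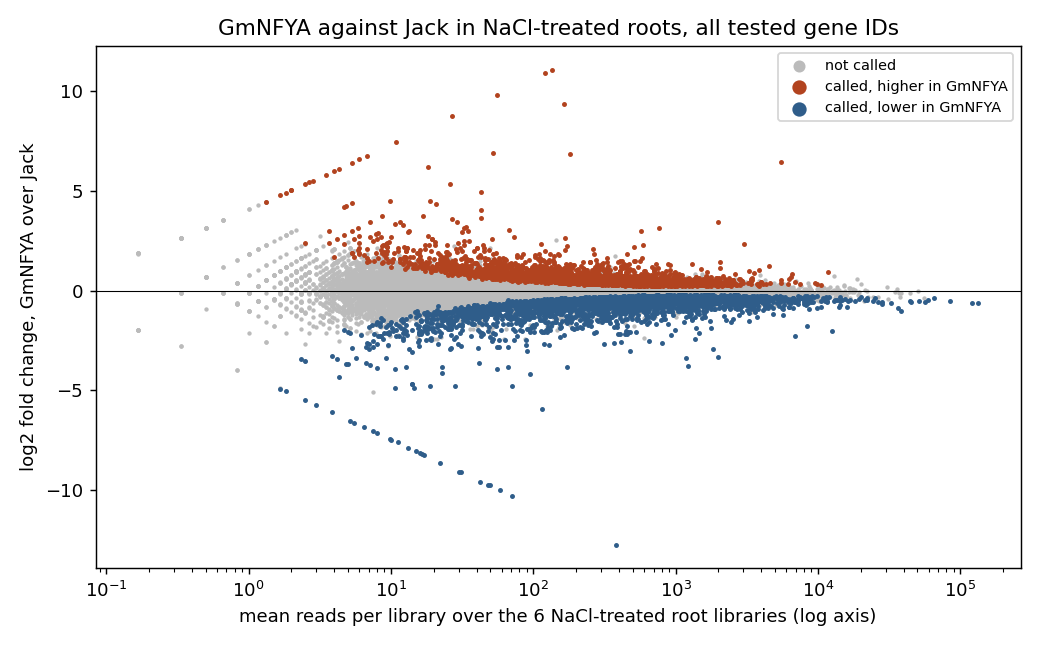
Each point is 1 of the 36390 tested gene IDs, with its mean reads per library over the 6 salt-treated root libraries on a log axis and its log2 fold change (GmNFYA over Jack) on the other axis. The 2567 IDs called higher and the 3601 called lower lie on either side of 0, and the straight edges at low reads are IDs with no read in 1 group, whose fitted fold change depends on the prior count.

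Lower calls in GmNFYA came with high read numbers. Depth is given as mean reads per library over the 6 salt-treated root libraries. Among the 4771 IDs with 1000 or more reads, 291 were called higher (6.1%) and 1026 lower (21.5%). Among the 13143 IDs with fewer than 100 reads, 721 were called higher (5.49%) and 623 lower (4.74%). The most deeply counted class, 135 IDs with 10000 or more reads, held 2 higher and 45 lower calls. The 10 most counted IDs took 3.04 to 3.29% of gene reads in the GmNFYA libraries and 3.9 to 4.2% in the Jack libraries, with no overlap. The excess of lower calls above 1000 reads stayed with DESeq2 (351 higher and 1172 lower) and with RLE size factors (292 and 1002). It turned round with library sizes alone, at 721 higher and 476 lower. It remained when single libraries were left out, although both counts shrank to 205 and 645 without GmNFYA replicate 1, 179 and 623 without GmNFYA replicate 2, 187 and 695 without GmNFYA replicate 3, and 165 and 663 without Jack replicate 2. In untreated roots, which share no library with the salt-treated ones, the same 4771 IDs held 378 higher (7.92%) and 1489 lower calls (31.2%), while the IDs below 100 reads held 1414 higher (10.8%) and 750 lower (5.71%). In salt-treated leaves, lower calls outnumbered higher ones at every depth, with 191 higher (4.1%) and 330 lower (7.08%) among the 4658 of these IDs tested there and 331 higher (3.23%) and 576 lower (5.62%) among the 10248 below 100 root reads. The counts by depth in untreated roots and in leaves were made with TMM factors only, and whether they too turn round with library sizes alone was not tested. Depth also set what could be seen: the median SE of the log2 fold change was 0.615 below 10 reads and 0.0928 from 1000 to 10000 reads.

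Among called IDs that averaged 2 or more on the log2 CPM scale and did not overlap between the groups (1906 higher and 2955 lower), the largest rise was that of Glyma.02G303800. It had 552, 505 and 536 CPM in salt-treated GmNFYA roots, against 8.59, 4.32 and 5.22 CPM in salt-treated Jack roots. All 3 GmNFYA libraries lay far above all 3 Jack libraries, and the difference was 86.3-fold (log2 6.43 ± 0.21 SE, adjusted p = 2.82e-10). Which GmNFYA gene the line carries is not stated in the labels, and whether this ID is that gene was not tested. Its level averaged 365 ± 28.5 CPM in untreated GmNFYA roots and 1.36 ± 0.376 CPM in untreated Jack roots (SD, n = 3 each), so the genotype difference without salt was 8.06 ± 0.24 on the log2 scale. In salt-treated leaves the ID was higher in GmNFYA too (log2 4.83 ± 0.13, adjusted p = 2.67e-10). The difference with salt changed by -1.62 ± 0.31 on that scale, that is, it was smaller (interaction, adjusted p = 0.0048). With NaCl at 6 h against untreated at 0 h, which differ in time as well as salt, the ID rose in Jack by a log2 of 2.16 ± 0.26 (adjusted p = 6.78e-06), and in GmNFYA by 0.54 ± 0.16 (adjusted p = 0.00867). These NaCl comparisons share the salt-treated libraries with the genotype comparison.

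Glyma.09G281800 showed the next largest rise within these limits. Salt-treated GmNFYA roots had 204, 170 and 162 CPM, against 16.5, 17.3 and 15.6 CPM in salt-treated Jack roots. The groups were far apart and narrow, and the ID was 10.8-fold higher in GmNFYA (log2 3.44 ± 0.13, adjusted p = 2.28e-10). Without salt it was at 17.8 ± 2.96 CPM in GmNFYA and 3.48 ± 0.502 CPM in Jack, a log2 difference of 2.35 ± 0.15. Here the genotype difference was wider with salt, by a log2 of 1.09 ± 0.19 (interaction, adjusted p = 0.00243). In salt-treated leaves the ID was also higher in GmNFYA (log2 4.17 ± 0.45, adjusted p = 0.000177).

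Within the same limits on level and overlap, which leave out called IDs without reads in 1 genotype, the largest fall was that of Glyma.05G123900, whose salt-treated GmNFYA libraries had 2.06, 1.29 and 0.629 CPM and whose salt-treated Jack libraries had 2.66, 32 and 22.3 CPM. Jack replicate 1 lay just above the highest GmNFYA library, and replicates 2 and 3 far above it. The difference of -3.82 ± 1.03 on the log2 scale passed the test narrowly (adjusted p = 0.0365), and did not pass it without any 1 of the GmNFYA libraries or of Jack replicates 2 and 3 (adjusted p = 0.0787 to 0.115), without the low-count filter, with only the 6 salt-treated libraries in the fit, or with the replicate number as a block (adjusted p = 0.0711). Without Jack replicate 1 it was -4.35 ± 0.75 (adjusted p = 0.00724). No read of this ID was counted in salt-treated leaves of either genotype. Glyma.10G193500 showed a tighter fall. It had 9.66, 11.2 and 6.29 CPM in salt-treated GmNFYA roots, against 125, 108 and 134 CPM in salt-treated Jack roots. Every GmNFYA library was below every Jack library, and the ID was 13.5-fold lower in GmNFYA (log2 -3.75 ± 0.23, adjusted p = 2.29e-06). It was lower in GmNFYA without salt too, at 28.6 ± 8.6 against 210 ± 14.6 CPM (log2 -2.88 ± 0.22), and in salt-treated leaves (log2 -4.22 ± 1.04, adjusted p = 0.0337).

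**Figure D2:**
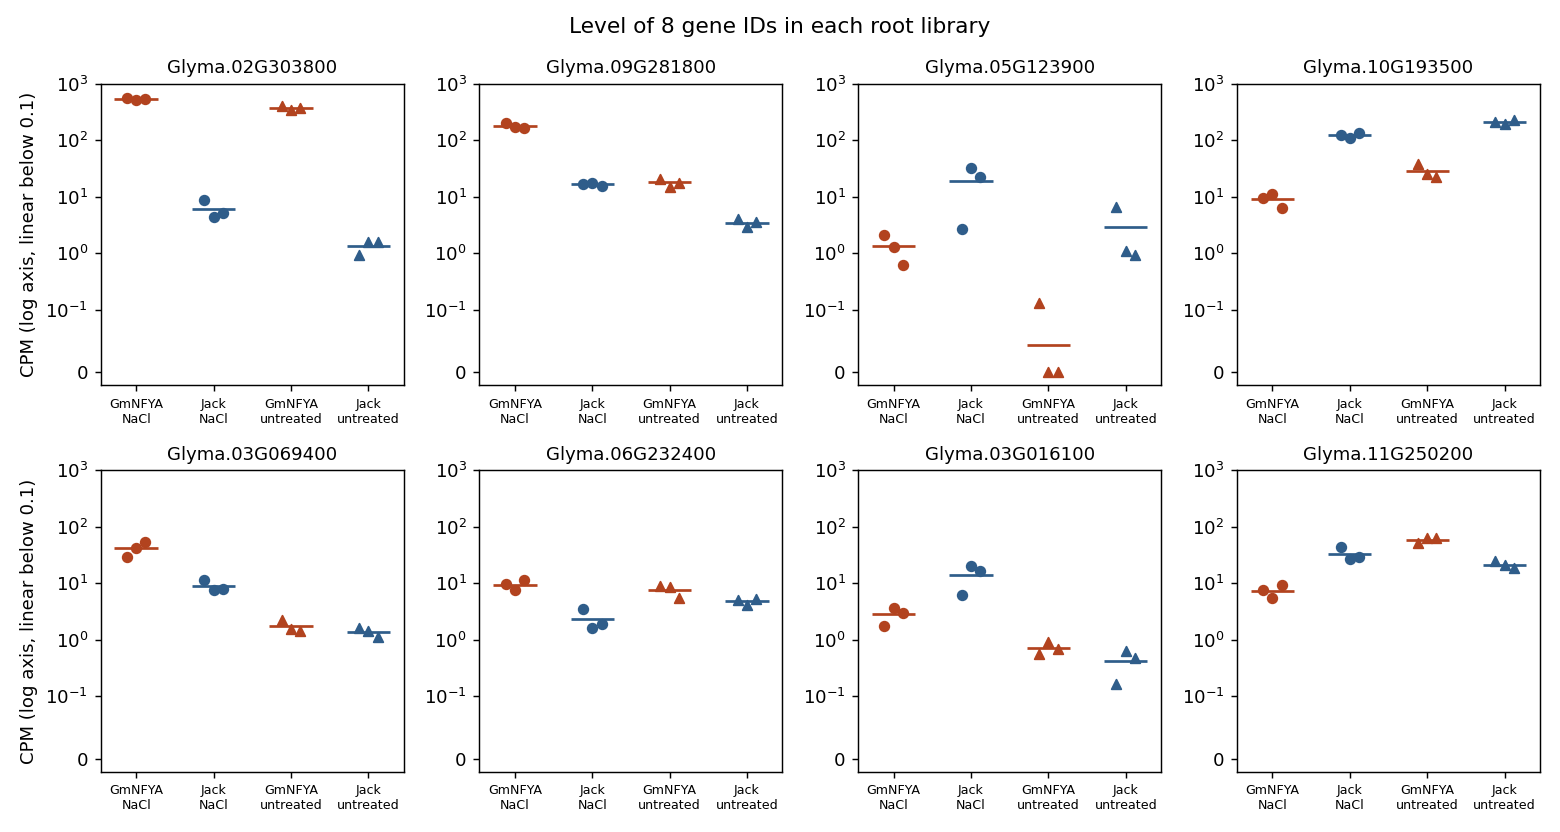
CPM of 8 gene IDs in each of the 12 root libraries (points; log axis, linear below 0.1), with a line at the group mean; the upper row holds the 2 largest rises and 2 largest falls under salt among IDs averaging 2 or more in log2 CPM without overlap, and the lower row IDs whose genotype difference differed between salt-treated and untreated roots. In Glyma.02G303800 the salt-treated GmNFYA libraries sit at 505 to 552 CPM and the Jack libraries at 4.32 to 8.59 CPM.

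Complete absence of reads in 1 genotype was rare. Of the 36390 tested IDs, 71 had no read in the 3 salt-treated Jack libraries, and 19 of these were called. In the 3 salt-treated GmNFYA libraries 59 had none, and 27 of these were called. Such IDs could pass the low-count filter only through reads in other root groups. With a mean of at least 1 CPM in the other genotype, 5 and 17 of the called IDs remained, at a median of 5.46 CPM in GmNFYA and 2.45 CPM in Jack. The same pattern was present without salt, with no read in the one genotype and at least 10 in the other, for 3 of the 5 and 11 of the 17. It was present in salt-treated leaves for 4 of the 5 and 7 of the 17, and in all 3 comparisons for 3 and 6. A count of 0 over the 3 libraries allows a level of up to 3 reads, which is 0.049 CPM in GmNFYA and 0.0544 CPM in Jack, for counting error only.

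A part of the genotype difference under salt was also present without salt. Untreated roots, with 3 other libraries of each genotype, had 8490 called IDs (23.3%), and the 2 comparisons share no library, though they take their dispersions from 1 fit. Of the 2567 IDs higher in GmNFYA under salt, 863 were also called higher without salt, 33.6% of the salt list and 22.1% of the untreated list, while 10.7% of all tested IDs were called higher without salt. Of the 3601 lower IDs, 1360 were also lower without salt, 37.8% and 29.7% of the lists, beside 12.6% of all IDs. The share of all IDs lower without salt was 5.71% below 100 reads and 31.2% at 1000 or more. The share higher was 10.8% and 7.92%. The shared calls were not split by depth. The sum of 2223 shared calls was 1481 and 1451 without GmNFYA replicate 1 or 3. The IDs called higher under salt had a median log2 difference of 0.59 with salt and 0.27 without, and those called lower a median of -0.54 and -0.24, while the median without salt over all tested IDs was 0.01.

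Other IDs had opposite genotype differences in the 2 states. With salt higher and without salt lower in GmNFYA were 88 IDs, 3.43% of the IDs higher under salt, while 12.6% of all IDs were lower without salt. Their median log2 difference was 0.57 with salt and -0.63 without. With salt lower and without salt higher were 198 IDs, 5.5% of the IDs lower under salt, while 10.7% of all IDs were higher without salt. Their medians were -0.65 with salt and 0.59 without. The interaction, which tests whether the genotype difference itself changed and which was called for 3018 IDs (8.29%), was called for all 88 and all 198, which were selected for opposite differences in the same fit, so that this restates the selection. The sum of 286 was 153 and 183 without GmNFYA replicate 1 or 2, 447 without Jack replicate 1 and 189 without Jack replicate 2. A further 260 of the 2567 IDs higher under salt and 494 of the 3601 lower had no call without salt and an interaction in the same direction. The interaction shares the salt-treated libraries with the calls that picked these IDs, so these counts are a description too. In the untreated libraries, multiply aligned reads were 5.19 to 5.88% in GmNFYA and 9.24 to 10.3% in Jack, and the part of that gap in the interaction was not tested. The untreated groups are labelled 0 h, so that NaCl and elapsed time cannot be told apart in the interaction.

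Glyma.11G250200 illustrates the opposite kind. It and the 3 IDs that follow were chosen after their values were seen, as the largest rises and falls whose interaction was called in the same direction and which were not called that way without salt, and their interaction is therefore a description. Salt-treated GmNFYA roots had 7.5, 5.41 and 9.38 CPM and salt-treated Jack roots 44.1, 27.5 and 29 CPM, without overlap (log2 -2.18 ± 0.23, adjusted p = 0.000111). Without salt the order was turned, with 50.9, 64.7 and 62.9 CPM in GmNFYA and 24.9, 21.2 and 18.4 CPM in Jack (log2 1.47 ± 0.21). Set side by side, the change between NaCl at 6 h and untreated at 0 h was -3.0 ± 0.23 on the log2 scale in GmNFYA and 0.65 ± 0.21 in Jack, comparisons that share the salt-treated libraries and in which NaCl and time cannot be told apart. Salt-treated leaves of both genotypes held no read of this ID.

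Glyma.03G069400 had 28.8, 42 and 55 CPM in salt-treated GmNFYA roots, against 11.6, 7.5 and 8.11 CPM in salt-treated Jack roots. These groups did not overlap, and GmNFYA was 4.58-fold higher (log2 2.20 ± 0.23, adjusted p = 7.01e-05). Without salt it was at 1.76 ± 0.43 CPM in GmNFYA and 1.39 ± 0.262 CPM in Jack, a difference that did not pass the test (log2 0.36 ± 0.36, adjusted p = 0.522). In salt-treated leaves it was higher in GmNFYA as well (log2 2.98 ± 0.24, adjusted p = 1.52e-05). Glyma.03G016100 had 1.76, 3.72 and 3.05 CPM in salt-treated GmNFYA roots, against 6.12, 20.3 and 16.5 CPM in salt-treated Jack roots, where replicate 1 was the lowest (log2 -2.32 ± 0.42, adjusted p = 0.00358). Without salt it averaged 0.729 ± 0.187 CPM in GmNFYA and 0.426 ± 0.238 CPM in Jack, and in salt-treated leaves its genotype difference did not pass the test (log2 0.22 ± 0.45, adjusted p = 0.821). Glyma.06G232400 had 9.71, 7.65 and 11.3 CPM in salt-treated GmNFYA roots and 3.5, 1.65 and 1.94 CPM in salt-treated Jack roots, with no overlap (log2 1.98 ± 0.26, adjusted p = 0.00021). Without salt it was at 7.73 ± 1.98 CPM in GmNFYA and 4.81 ± 0.624 CPM in Jack, again with no overlap. That difference narrowly failed the test (log2 0.68 ± 0.24, adjusted p = 0.0564). In salt-treated leaves the genotype difference of this ID did not pass the test either (log2 1.11 ± 0.49, adjusted p = 0.186).

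**Figure D3:**
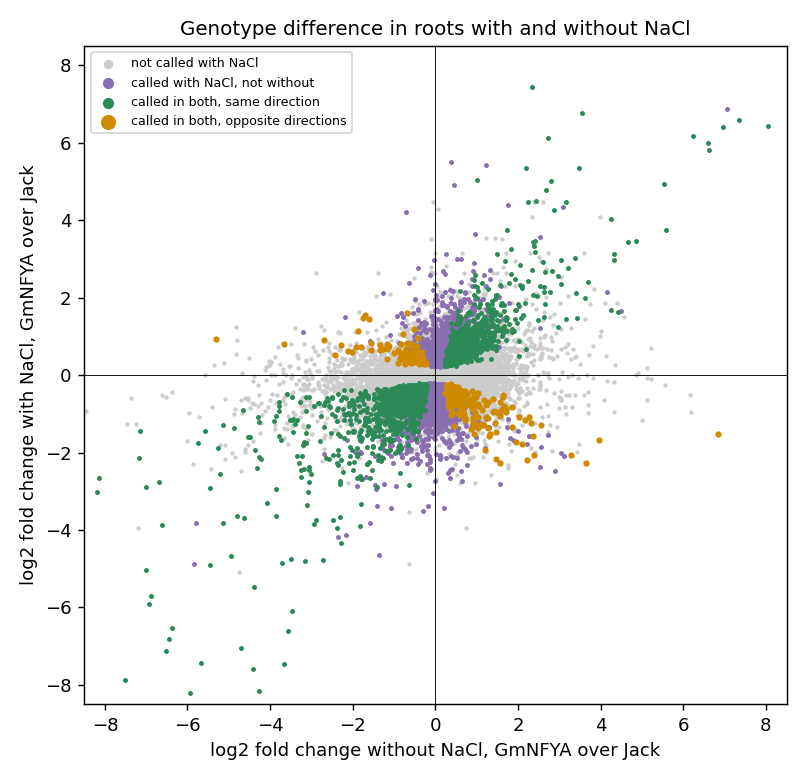
Each point is a tested gene ID, with its log2 fold change of GmNFYA over Jack in untreated roots (horizontal) and in salt-treated roots (vertical); 19 IDs lie outside the axes. Green points are the 2223 IDs called in both states in the same direction, and orange points the 286 called in opposite directions.

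The genotype difference in roots was set beside that in leaves under the same salt treatment. Both organs were tested for 32699 IDs, and the comparisons share no library, but the tables were scaled separately. In leaves 3004 of these IDs were called (9.19%). Of the 2340 IDs higher in GmNFYA roots (7.16%), 199 were higher in leaves too, 8.5% of the root list and 17.1% of the leaf list, while 3.57% of all IDs were higher in leaves. Of the 3333 lower IDs (10.2%), 503 were lower in leaves too, 15.1% and 27.4% of the lists, beside 5.62% of all IDs. Higher in roots but lower in leaves were 45 IDs, 1.92% of the higher root list beside 5.62% of all IDs, and lower in roots but higher in leaves were 82 IDs, 2.46% of the lower root list beside 3.57% of all. The same direction in salt-treated roots, untreated roots and salt-treated leaves was called for 111 higher and 246 lower IDs. These were 4.74% and 7.38% of the root lists, while 0.746% of all IDs were higher and 1.46% lower in both untreated roots and leaves.

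How the IDs that differed in salt-treated roots responded to NaCl in Jack leaves was counted next, since those leaf libraries enter no root comparison. In Jack leaves, 18.4% of all 32699 IDs were higher and 15.3% lower with NaCl at 6 h than untreated at 0 h, which is called raised and lowered by NaCl here although NaCl and elapsed time cannot be told apart. Of the 2340 IDs higher in GmNFYA roots under salt, NaCl raised 235 (10%) and lowered 559 (23.9%) in Jack leaves. Of the 3333 IDs lower in GmNFYA roots under salt, it raised 1003 (30.1%) and lowered 514 (15.4%). The median log2 response to NaCl in Jack leaves was -0.20 for the higher IDs, 0.14 for the lower IDs and 0.00 for all. Depth, counted as mean reads in the 6 salt-treated root libraries, moves with these shares. Of IDs with 1000 or more such reads 31.5% were raised in Jack leaves, against 8.78% of those with 10 to 100. These reads were counted after NaCl, and the part of a root response to NaCl in the depth classes was not tested. Within 1000 or more reads, the share raised was 12.5% of the higher and 40.7% of the lower IDs, and from 100 to 1000 reads it was 10.6% and 28.1%, beside 20.9% of all. From 10 to 100 reads it was 7.56% and 16%, beside 8.78% of all. The shares lowered in Jack leaves did not keep 1 order over depth. They were 28.5% of the higher and 8.07% of the lower IDs at 1000 or more reads, 23.6% and 16.2% from 100 to 1000, and 22.7% and 27.3% from 10 to 100, beside 11.1, 13.7 and 19.7% of all.

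The same IDs were counted by their response to NaCl in GmNFYA leaves. There NaCl raised 11.8% of the IDs higher and 26% of the IDs lower in salt-treated GmNFYA roots, beside 18.3% of all. It lowered 25.1% and 24%, beside 17.7% of all. For the genotype difference in untreated roots, the shares raised in Jack leaves were 20.9% of the 3411 IDs higher in GmNFYA and 21.5% of the 4084 lower, and the shares lowered were 18.3% and 17%. The IDs of untreated roots were split by the same depth classes, from reads in the salt-treated and not the untreated libraries. In each of the 3 classes, the share raised in Jack leaves was larger for the higher IDs of untreated roots. This was the reverse order of the salt-treated comparison and of the pooled shares. The share raised was 39.5% of the higher and 28.2% of the lower IDs at 1000 or more reads. It was 22.2% and 19.7% from 100 to 1000, and 12.4% and 10.2% from 10 to 100. Below 1000 reads the gaps were small. The 95% binomial intervals treat IDs as independent, which they are not, so they are given as a description only. They did not overlap at 1000 or more reads (34.5 to 44.7% and 25.8 to 30.6%). From 100 to 1000 reads they overlapped (20.4 to 24.1% and 18 to 21.4%). They also overlapped from 10 to 100 (10.3 to 14.7% and 7.53 to 13.3%). With library sizes alone in the root fit, the shares raised in Jack leaves were 12.4% of higher and 30.4% of lower IDs, and the shares lowered 19.8% and 20.4%. No test was made of these shares, as IDs are not independent units.

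**Figure D4:**
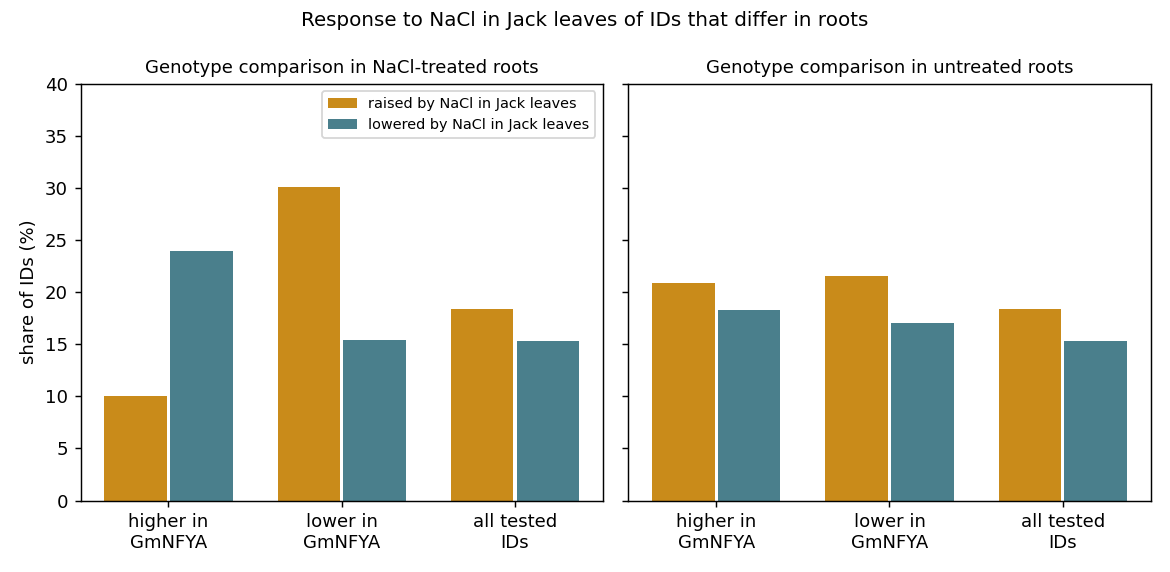
Bars give the share of gene IDs raised or lowered by NaCl in Jack leaves among those called higher or lower in GmNFYA roots and among all tested IDs, for the genotype comparison in salt-treated roots (left) and untreated roots (right). In salt-treated roots the share raised is 10% for higher and 30.1% for lower IDs, while in untreated roots it is 20.9% and 21.5%. The untreated shares are pooled over read depths, counted in the salt-treated root libraries. Within the depth classes from 10 reads up, the higher IDs have the larger share, by a small margin below 1000 reads.

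Called IDs were spread over all 20 chromosomes, which soybean gene IDs carry as their leading number. From 14.9% (chromosomes 4 and 15) to 19.2% (chromosome 18) of the tested IDs of a chromosome were called. Differences of at least 4-fold were less even. They made up 1.88% of tested IDs on chromosome 18 (34 IDs), 1.5% on chromosome 13 (38 IDs) and 1.24% on chromosome 3 (21 IDs), beside 0.808% of all IDs and 0.379% on chromosome 11 (7 IDs). When only IDs above 1 CPM in at least 3 libraries were tested, the count was 21 on chromosome 18 and 30 on chromosome 13. Over all IDs it was then 224 instead of 294, and shares of tested IDs were not counted at this limit.

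In 714 runs of 50 neighbouring tested IDs, 510 held no 4-fold call and the highest number was 8. The run from Glyma.18G077800 to Glyma.18G086900 held 8, with 3 higher and 5 lower in GmNFYA, and in the same run 9 IDs differed at least 4-fold in untreated roots and 6 in salt-treated leaves. The run from Glyma.03G064200 to Glyma.03G074600, which includes Glyma.03G069400, also held 8, with 2 higher and 6 lower, beside 8 in untreated roots and 6 in salt-treated leaves. Over all IDs, at least 4-fold differences were called for 1.99% in untreated roots and 0.899% in salt-treated leaves. Of the 714 runs, 3 held 8 or more such calls in untreated roots and 2 held 6 or more in salt-treated leaves. The untreated maximum was 10, in the run from Glyma.09G159700 to Glyma.09G1671002, which held 2 in salt-treated roots and 0 in salt-treated leaves. Directions were mixed within the 2 runs that held 8 under salt, on chromosomes 3 and 18, whose median log2 fold changes were -0.07 and -0.09. The run with the most calls of any size, from Glyma.18G096400 to Glyma.18G106800, had 48% of its IDs called, against a median of 16% per run. For a called ID, the next tested ID on the chromosome was called in the same direction for 9.4% of higher and 13.6% of lower IDs, beside 7.05% and 9.89% after any ID.

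**Figure D5:**
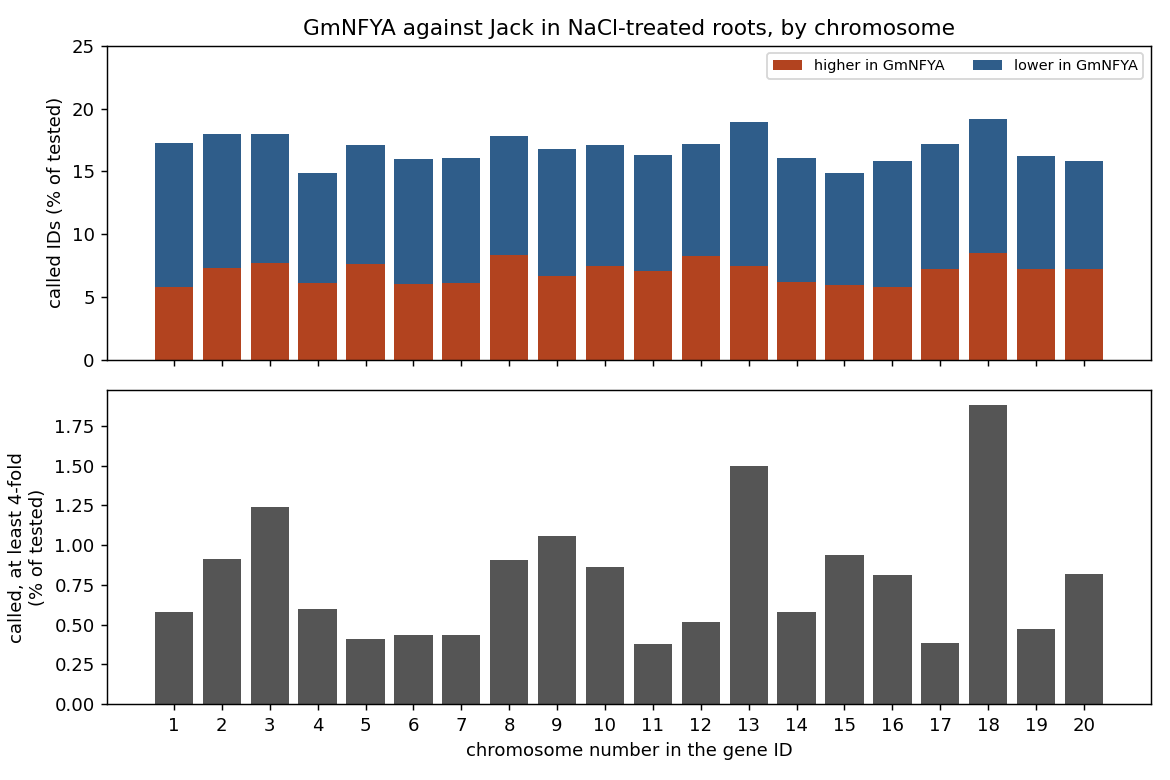
Bars give, for each chromosome number in the gene ID, the tested IDs called higher or lower in salt-treated GmNFYA roots (upper panel, stacked) and those called with an at least 4-fold difference (lower panel), both as a percent of tested IDs. The upper bars lie between 14.9 and 19.2%, while the lower bars reach 1.88% on chromosome 18 and 1.5% on chromosome 13.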

How the data were processed

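The authors deposited raw read counts per gene ID in 2 tables, for roots and for leaves, with no normalization. The submitters' processing notes list HISAT2, featureCounts and DESeq2 but not what each did. The rows of unassigned reads have the form that htseq-count writes, so which program made the counts is uncertain. Genome build, annotation and strand setting are not given in the sources read for this work. Per the labels' protocols, RNA was extracted with TRIzol for standard Illumina libraries. The root table has 57110 rows, of which 57105 name a gene; 5 rows of unassigned reads stayed out of library sizes and tests, and genes took 76.7 to 78.2% of reads in the 6 salt-treated root libraries. Reads with more than 1 alignment are listed apart, so levels of near-identical gene copies are uncertain, as are those of overlapping or antisense genes.

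Tests used edgeR 4.0.16 in R 4.3.3 on all 12 root libraries (leaf: 12), with filterByExpr (minimum count 10; 36390 root IDs holding 99.93% of gene reads), TMM scaling, robust dispersions, quasi-likelihood F tests and Benjamini-Hochberg adjustment over all IDs tested. SEs were taken from the log2 fold change and its F statistic. DESeq2 1.42.0 was an alternative. The members, lists and tests were chosen with earlier results of these data known. The rule for named IDs took, without descriptions, the 2 largest rises and 2 largest falls among called IDs averaging at least 2 in log2 CPM (prior count 2) over the 6 libraries and no overlap between groups, and Glyma.02G303800. The 35 gene lists fixed by description could not be filled, since 0 IDs matched the 59048 genes of the reference table (Glycine_max_v4.0). Same-numbered libraries of the 2 groups did not deviate together. No 2 libraries of a group were identical or within sampling noise (chi-square per degree of freedom 4.87 to 17.6). The script was tested on simulated data with as many IDs raised as lowered, which does not cover the dependence of the higher and lower split on scaling.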

Additional observations from a re-analysis of the deposited data

Results flagged for a closer look

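The genotype difference in roots differed between salt-treated and untreated roots for 3018 IDs by edgeR's interaction test (adjusted p under 0.05). Among the IDs named, Glyma.02G303800 had a difference of -1.62 ± 0.31 between its log2 genotype differences with and without NaCl, and Glyma.09G281800 one of 1.09 ± 0.19. Both calls held in every alternative in which the interaction was fitted. For the IDs chosen by their interaction, the values were -3.65 ± 0.31 for Glyma.11G250200, -3.08 ± 0.84 for Glyma.03G016100, 1.84 ± 0.44 for Glyma.03G069400 and 1.30 ± 0.36 for Glyma.06G232400. Of these, the call for Glyma.11G250200 held in every such alternative. That for Glyma.03G069400 was lost without Jack replicate 3 (adjusted p = 0.0503), and that for Glyma.06G232400 without GmNFYA replicate 1 or 3 or Jack replicate 2 or 3 (adjusted p = 0.0803 to 0.0934). That for Glyma.03G016100 was lost with all IDs tested irrespective of their counts (adjusted p = 0.0736) and without any salt-treated library except Jack replicate 1 (adjusted p = 0.0528 to 0.077).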

How the results depend on the processing

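The counts depended on which library was left out. Leaving out 1 of the 6 in turn gave 3868 to 6214 calls in all, 1560 to 2359 higher, 2203 to 3855 lower, 1451 to 2202 shared with untreated roots, 505 to 787 shared with salt-treated leaves and 2070 to 4212 interactions; no ID called with all libraries was called in the other direction. Library sizes without TMM factors, added after seeing the data, gave 5239 higher and 1928 lower IDs. The TMM factors were 0.986 to 0.9999 in salt-treated GmNFYA roots and 0.8987 to 0.9133 in salt-treated Jack roots, without overlap. What lies behind that gap was not tested. Counts of calls were 6699 with DESeq2, 6136 with RLE size factors, 5745 without the low-count filter, 6173 above 1 CPM in at least 3 libraries and 4879 when the fit held the 2 compared groups alone, where 191 IDs instead of 294 differed at least 4-fold. With the replicate number as a block the count was 5465. Same-numbered libraries had correlations of -0.046 to -0.031 between their deviations from the group means, and 0 of 3 GmNFYA libraries were closest to the Jack library of their number, so the number does not pair them; the block ended the call for Glyma.05G123900 and for no other ID named. Without the low-count filter that ID had an adjusted p of 0.052, and 0.0683 in the fit of 2 groups. The other 7 named IDs kept direction and call in the genotype comparison under every alternative. Alternatives for gene lists were not run, as no list could be filled. Depth limits the IDs with fewer than 10 reads, whose median SE was 0.615 on the log2 scale.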
